A study of Mus musculus with 6 samples.

Results

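The killer lectin-like receptor (Klr) genes encode C-type lectin-like receptors of natural killer (NK) cells and subsets of T cells. Members were taken from the deposited gene table by symbol, as every gene named Klra, Klrb, Klrc, Klrd, Klre, Klrg, Klri or Klrk with a number, whatever its biotype. This gave 30 of the 54532 genes, of which 26 are annotated as protein coding and 4 as pseudogenes. The 14 Klra, 6 Klrb, 3 Klrc, 2 Klrg and 2 Klri genes stand beside the single genes Klrd1, Klre1 and Klrk1. All lie on chromosome 6 (GRCm38), and 28 of them fall within 2638 kb, between chr6:128609227 and chr6:131247362. Klrg1 (chr6:122270596-122282882) and Klrg2 (chr6:38625693-38637242) lie apart from this cluster.

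RNA was sequenced from mouse T cells after co-culture with ID8 cells, a mouse ovarian cancer line. The ID8 cells had been pretreated with 40 µM cisplatin, a DNA-crosslinking drug, for the 3 libraries called cisplatin here, and with phosphate-buffered saline (PBS) for the 3 control libraries. In both groups the T cells came from spleens of C57BL/6 mice aged 6 to 8 weeks, were isolated with a pan T-cell kit, kept in IL-2 and activated through CD3 and CD28 with antibody-coated beads. The comparison therefore asks how T-cell transcripts differ with the state of the tumour cells, and no library of T cells cultured alone was analysed here. The study speaks of biological replicates and independent samples without saying whether these were separate mice or cultures, so p-values measure only the spread between these libraries, which may in part be technical.

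Klr receptors read the state of neighbouring cells. The Klra (Ly49) receptors bind MHC class I, and Klrd1 (CD94) pairs with Klrc proteins (NKG2) to bind the non-classical molecule Qa-1. Klrk1 (NKG2D) binds stress-induced ligands and signals through the adaptor Hcst (DAP10) or Tyrobp (DAP12). Inhibitory members carry an immunoreceptor tyrosine-based inhibitory motif (ITIM) in the cytoplasmic tail, which recruits phosphatases such as Ptpn6 (SHP-1). Activating members generally lack it and depend on adaptors. Activated CD8 T cells, NKT cells and gamma-delta T cells can also express these receptors.

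In many inhibitory members the motif lies at the very start of the coding sequence. The first 48 coding bases from the GENCODE M21 transcripts are shown for the receptors on which the results below turn, on the minus strand of GRCm38, with the 6 codons that match an ITIM in capitals. The pattern searched on the coding strand was a codon for isoleucine, leucine, valine or serine, any codon, a tyrosine codon, any 2 codons and a codon for leucine, valine or isoleucine.
Klra7 (chr6:130231570-130231617): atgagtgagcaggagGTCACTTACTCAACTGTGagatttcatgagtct
Klra1 (chr6:130380615-130380662): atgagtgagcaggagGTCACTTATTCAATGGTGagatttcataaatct
Klra3 (chr6:130335752-130335799): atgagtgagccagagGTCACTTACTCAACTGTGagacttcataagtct
Klra6 (chr6:130025172-130025219): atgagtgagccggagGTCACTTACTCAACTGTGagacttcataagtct
Klra9 (chr6:130191254-130191301): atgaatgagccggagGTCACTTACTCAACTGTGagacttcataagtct
Klra4 (chr6:130065255-130065302): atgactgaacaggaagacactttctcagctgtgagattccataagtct
Klra8 (chr6:130128113-130128160): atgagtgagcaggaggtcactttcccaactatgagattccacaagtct
Klrc1 (chr6:129678863-129678910): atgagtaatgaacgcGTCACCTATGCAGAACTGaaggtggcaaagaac
Klrg1 (chr6:122282764-122282811): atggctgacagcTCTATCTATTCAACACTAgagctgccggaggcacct

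Klra4 (Ly49D) and Klra8 (Ly49H), both known as activating receptors, held no match. Counted from the A of the start codon, both carry the substitution A23T relative to Klra7 (Ly49G2), which removes the tyrosine codon. Within the first 48 bases a match was present in 13 of the 26 members with a complete coding model (50.0%) and in 324 of 21526 protein-coding genes (1.51%). A match anywhere before the first hydrophobic stretch was found in 15 members, the further 2 being Klri1 and Klrb1c, whose matches extend or lie beyond these bases. A match is one of sequence only, and whether it works as an ITIM was not tested. The Klra coding sequences are close to each other: identity over aligned bases ran from 72.8% (Klra2 and Klra8) to 96.9% (Klra9 and Klra10), and was 95.9% for Klra3 and Klra9.

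Klrd1 carried most of the family's signal in FPKM. Levels are given as FPKM, fragments scaled for the length of the gene and for the size of the library, so that genes of unequal length can be compared. The summed FPKM of the 30 genes was 148, 146 and 140.1 in the cisplatin libraries and 99.2, 106 and 106 in the control libraries, without overlap. Klrd1 made up 62.5% to 66.1% of that sum in each library. Without Klrd1 the sum was 52.0 ± 4.01 FPKM (SD, n = 3) in cisplatin and 36.2 ± 2.09 (SD, n = 3) in control. Behind Klrd1 followed Klra7, Klra4, Klrk1, Klra13-ps, Klra6 and Klrc1 in order of mean level over all libraries. Klrd1 stood apart from Klra7, and Klra7 from Klra4, in both groups, while each later pair of neighbours in this order overlapped in at least 1 group. The order rests on the listed gene lengths, which were 7183 bases for Klrk1 and 1265 for Klra7. In reads Klrk1 was ahead of Klra7, with means of 1622 against 344 in cisplatin and 834 against 237 in control.

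**Figure D1:**
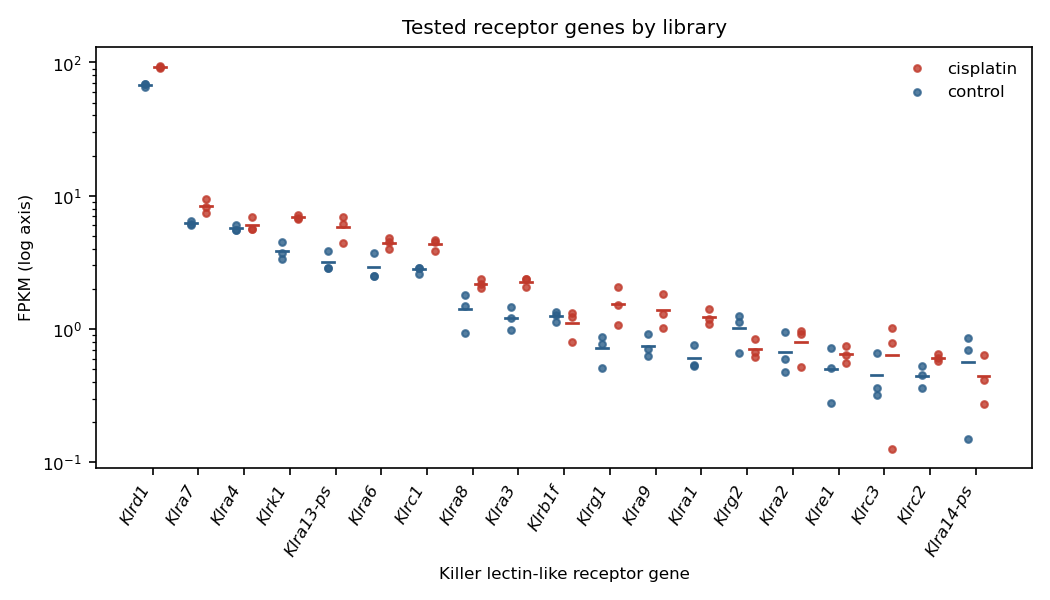
FPKM (log axis) of the 19 Klr genes whose mean reached 0.5 FPKM, ordered by mean level, with a point per library and a bar at each group's mean (n = 3). Klrd1 lies between 65.3 and 93.8 FPKM and every other gene stays under 10, and the groups do not overlap for 12 genes, with cisplatin above control in each at the deposited scaling.

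At the deposited scaling, transcripts of 10 of the 19 tested members rose in the cisplatin libraries and none fell, and under centring on T-cell genes only Klrk1 still rose. A gene was tested where its mean was at least 0.5 FPKM, and called at an adjusted p-value under 0.05 in limma with Benjamini-Hochberg adjustment over all 15874 genes tested. Of these, 27.5% were called higher and 29.0% lower. The 10 were Klrd1, Klrk1, Klrc1, Klrg1, Klra1, Klra3, Klra6, Klra7, Klra9 and Klra13-ps. None of the 10 reached a 2-fold difference on the log2(FPKM + 0.1) scale, a mark that 4.11% of all tested genes reached upwards. The added 0.1 lowers the folds of low genes, and the plain ratio of mean FPKM was 2.14 for Klrg1 and 2.03 for Klra1. All 3 cisplatin libraries lay above all 3 control libraries for 12 of the 19 (31.9% of all tested genes), and the reverse held for none (32.3%). The members' log2 fold changes had a median of 0.46, against 0.028 over all tested genes. No member was called lower in limma, and 9 members were not called in either direction. The intervals of the 3 members with a negative difference, Klrg2, Klrb1f and Klra14-ps, all included 0, so none was lower at an unadjusted p under 0.05 either.

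How far the family rose depended on what it was measured against. T-cell transcripts rose as a whole, with 24 of 25 listed T-cell genes higher and Themis lower, at a median log2 fold change of 0.59. When each library was centred on 21 of these T-cell genes, 1 member rose (background 5.92%) and 3 fell (background 61.3%), and the members' median was -0.041 while that of all genes was -0.47. The member that rose was Klrk1 (log2 fold change 0.34, adjusted p = 0.019), and those that fell were Klra4, Klrb1f and Klrg2. When limma voom was applied to whole reads rebuilt from the FPKM, 24 members were tested, 14 rose (background 31.7%), 4 of them by 2-fold or more (background 6.08%), and none fell (background 25.6%). In bulk RNA, fewer cells of a type and less RNA per cell cannot be told apart.

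**Figure D2:**
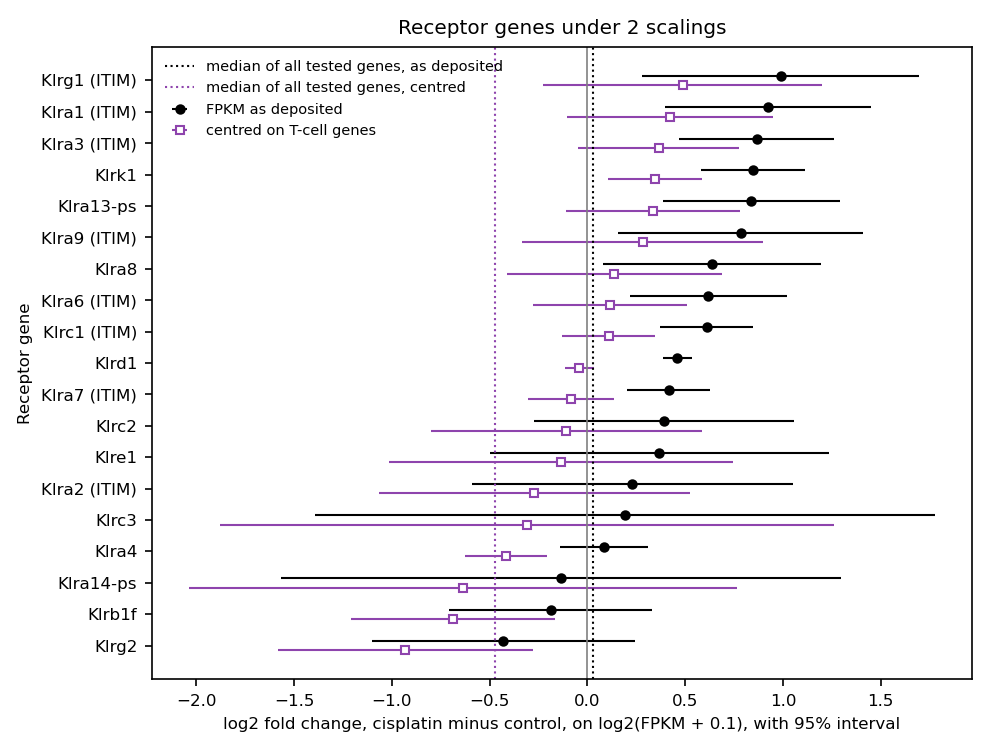
Log2 fold change (cisplatin minus control, on the scale log2(FPKM + 0.1)) of the 19 tested Klr genes with 95% intervals, for FPKM as deposited (filled circles) and after centring on T-cell genes (open squares), with the median of all tested genes as dotted lines. The points lie between -0.43 and 0.99 as deposited, while after centring Klrk1 alone has an interval above 0 and Klra4, Klrb1f and Klrg2 have intervals below 0. ITIM marks genes whose coding model holds a match to the motif's pattern.

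Klrd1, the CD94 chain shared by the NKG2 heterodimers, was the most abundant and most precisely measured member. Its level was 93.8, 91.4 and 92.7 FPKM in the cisplatin libraries and 65.3, 68.3 and 68.3 FPKM in the control libraries, each resting on 2513 to 3890 reads. The groups were far apart relative to their spread, with means of 92.6 ± 1.23 and 67.3 ± 1.73 FPKM (SD, n = 3 each). The log2 fold change was 0.46 ± 0.030 (SE; limma adjusted p = 2.4e-05), and it was -0.041 (adjusted p = 0.27) when libraries were centred on T-cell genes.

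Klrc1 (NKG2A), the inhibitory partner of CD94, rose with it at the deposited scaling, and after centring it was 0.11 (adjusted p = 0.37). It measured 4.69, 4.47 and 3.83 FPKM in cisplatin against 2.60, 2.89 and 2.89 FPKM in control. The log2 fold change was 0.61 ± 0.10 (SE; limma adjusted p = 0.002). The ratio of Klrc1 to Klrd1 was also taken within each library, on FPKM + 0.1. On the log2 scale it was -4.39 ± 0.15 in cisplatin and -4.54 ± 0.05 in control (SD, n = 3 each), and the difference of 0.15 did not pass (exact two-sided permutation test, p = 0.3; 0.1 is the smallest that 3 against 3 allows). This and 3 further ratios were chosen after the values had been seen, with p-values adjusted over the 4.

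The remaining partners of this group were low. Klrc2 (NKG2C), the activating partner, measured 0.654, 0.602 and 0.573 FPKM in cisplatin and 0.527, 0.448 and 0.359 FPKM in control. Its groups did not overlap, but the log2 fold change of 0.39 ± 0.28 (SE) did not pass in limma (adjusted p = 0.27), whereas voom gave 0.55 (adjusted p = 0.047) and centring -0.11. Klrc3 (NKG2E) rested on 3 to 24 reads per library and measured 1.01, 0.779 and 0.126 FPKM in cisplatin against 0.362, 0.317 and 0.664 FPKM in control. Klrc1, Klrc2 and Klrc3 share sequence. Of all 100-base stretches in their transcripts, 14.6%, 7.1% and 16.0% also occur in another gene, so part of their reads could have been assigned to either.

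Klre1, which forms heterodimers with Klri1 or Klri2, measured 0.637, 0.743 and 0.556 FPKM in cisplatin and 0.505, 0.726 and 0.280 FPKM in control, and the groups overlapped. The inhibitory partner Klri1 held 2 to 12 reads per library. The activating partner Klri2 held 62, 72 and 52 reads in cisplatin and 23, 20 and 48 in control. Klri2 was under the level tested in FPKM, and voom called it higher by 1.09 on the log2 scale (adjusted p = 0.015).

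Klrk1 (NKG2D), the activating receptor for stress-induced ligands, was the only member that rose at both scalings. It measured 6.71, 6.85 and 7.20 FPKM in cisplatin and 3.33, 3.69 and 4.48 FPKM in control, on 719 to 1677 reads. Every cisplatin library was well above every control library, with means of 6.92 ± 0.25 and 3.83 ± 0.59 FPKM (SD, n = 3 each). The log2 fold change was 0.85 ± 0.11 (SE; limma adjusted p = 0.00068). Within libraries, Klrk1 relative to Klrd1 was 0.39 higher on the log2 scale in cisplatin, and relative to its adaptor Hcst it was 0.49 higher. Both had an exact two-sided permutation p of 0.1, the smallest possible, and 0.133 after adjustment over the 4 ratios.

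Of the 6 tested Klra receptors with an ITIM, 5 rose at the deposited scaling, and none passed after centring, where Klra7 was at -0.085. Klra7 (Ly49G2), the most abundant of them, measured 9.38, 8.18 and 7.46 FPKM in cisplatin and 6.14, 6.04 and 6.44 FPKM in control. Its log2 fold change was 0.42 ± 0.088 (SE; limma adjusted p = 0.0065). The groups did not overlap, and the spread was wider in the cisplatin libraries.

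Klra3 (Ly49C) and Klra1 (Ly49A) showed larger differences on fewer reads. Klra3 was at 2.37, 2.07 and 2.37 FPKM in cisplatin and 1.21, 1.46 and 0.974 FPKM in control (log2 fold change 0.87 ± 0.17 SE, limma adjusted p = 0.0041). Klra1 was at 1.09, 1.20 and 1.42 FPKM in cisplatin and 0.529, 0.756 and 0.536 FPKM in control (0.92 ± 0.22 SE, adjusted p = 0.011). For both, the lowest cisplatin library was above the highest control library. After centring, their log2 fold changes were 0.37 and 0.42 and did not pass (adjusted p = 0.10 and 0.13).

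Klra6 (Ly49F) and Klra9 (Ly49I) rose by smaller margins. Klra6 measured 4.49, 4.81 and 4.01 FPKM in cisplatin and 2.48, 3.71 and 2.51 FPKM in control (log2 fold change 0.62 ± 0.17 SE, limma adjusted p = 0.018). Klra9 measured 1.31, 1.01 and 1.83 FPKM in cisplatin and 0.625, 0.704 and 0.917 FPKM in control (0.78 ± 0.26 SE, adjusted p = 0.039). Both calls were lost in 4 of the 6 fits that left out a library, while the log2 fold changes stayed between 0.52 and 0.80 for Klra6 and between 0.57 and 0.97 for Klra9. When 1 library was left out at a time, Klra6 kept its call only where that was cisplatin library 3 or control library 2, and its adjusted p otherwise rose to between 0.051 and 0.061. Klra9 likewise kept its call only without cisplatin library 2 or control library 3, and its adjusted p otherwise reached 0.084 to 0.12. Klra2 (Ly49B), the remaining tested Klra gene with an ITIM, overlapped between groups, at 0.521, 0.922 and 0.959 FPKM in cisplatin and 0.474, 0.598 and 0.944 FPKM in control.

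Neither activating Klra receptor passed at the deposited scaling. Klra4 (Ly49D) measured 5.63, 6.88 and 5.65 FPKM in cisplatin and 5.51, 5.52 and 6.02 FPKM in control, with overlapping groups. Its log2 fold change of 0.085 had a 95% interval from -0.14 to 0.31 (limma adjusted p = 0.47). After centring Klra4 fell by 0.42 (limma adjusted p = 0.0045), beside a median of -0.47 over all tested genes. Klra4 relative to Klra7 within libraries was lower by 0.33 on the log2 scale in cisplatin, all 3 values lying below the controls (exact two-sided permutation test, p = 0.1; adjusted over the 4 ratios, 0.133). Klra4 shares no 100-base stretch with another gene, and Klra7 shares 1.8% of its stretches.

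Klra8 (Ly49H), the receptor for a cytomegalovirus protein, measured 2.18, 2.36 and 2.02 FPKM in cisplatin and 1.499, 0.934 and 1.80 FPKM in control. The groups did not overlap, and the log2 fold change of 0.64 ± 0.23 (SE) fell just short in limma (adjusted p = 0.053). It passed without control library 3 (0.83, adjusted p = 0.024) and in voom (0.76, adjusted p = 0.031). It did not pass after centring (0.14, adjusted p = 0.63), without a filter on low values (adjusted p = 0.10) or without any other library (adjusted p up to 0.14). Klra8 shares 13.7% of its 100-base stretches with the pseudogene Klra14-ps, so their reads cannot be fully separated. Klra14-ps itself overlapped between groups, at 0.416, 0.271 and 0.638 FPKM in cisplatin and 0.150, 0.689 and 0.849 FPKM in control.

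The transcribed pseudogene Klra13-ps ranked behind Klrd1, Klra7, Klra4 and Klrk1 by mean level. It measured 6.17, 6.90 and 4.45 FPKM in cisplatin and 2.88, 3.85 and 2.88 FPKM in control, without overlap. Its log2 fold change was 0.84 ± 0.19 (SE; limma adjusted p = 0.0085), and 0.34 (adjusted p = 0.15) after centring. It shares 1.9% of its 100-base stretches with Klra7.

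Grouped by the motif, 7 of the 8 tested members with an ITIM match rose at the deposited scaling (27.5% of all tested genes). Of the 9 tested members with a coding model and no match, 2 did. After centring, 0 of the 8 and 1 of the 9 rose (5.92% of all tested genes), and 0 and 3 fell (61.3%). In voom, 8 of 11 members with a match and 5 of 11 without rose (31.7% of all genes). The 8 include Klrb1c, which is paired below with the adaptor Fcer1g, so a match does not by itself make a member inhibitory. At the deposited scaling the 7 were Klra1, Klra3, Klra6, Klra7, Klra9, Klrc1 and Klrg1, and the 2 were Klrd1 and Klrk1. The median log2 fold changes with and without a match were 0.70 and 0.37 as deposited, and 0.20 and -0.13 after centring. This grouping was made after the values had been seen and was not tested, and the Klra members in it share much of their sequence.

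Klrg1, an inhibitory receptor of antigen-experienced T and NK cells that binds cadherins, had the highest log2 fold change of the 19 members tested on FPKM. In voom, Klrb1c was higher still (1.27 against 1.16). Klrg1 measured 1.51, 2.05 and 1.07 FPKM in cisplatin and 0.777, 0.873 and 0.507 FPKM in control, on 22 to 96 reads. The log2 fold change was 0.99 ± 0.30 (SE; limma adjusted p = 0.027), and 0.49 (adjusted p = 0.19) after centring. With 1 library left out, the call held only where that was cisplatin library 3 or control library 2, and the adjusted p otherwise lay between 0.05 and 0.088. Klrg2, a related gene outside the cluster, was at 0.668, 0.838 and 0.613 FPKM in cisplatin and 0.662, 1.25 and 1.12 FPKM in control. Its log2 fold change of -0.43 did not pass (limma adjusted p = 0.24), and after centring it fell by 0.93 (adjusted p = 0.02).

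The Klrb (NKR-P1) genes were low throughout. Klrb1f, a receptor for lectins of the Clec2 family, was the only Klrb gene tested, at 1.22, 1.31 and 0.792 FPKM in cisplatin and 1.28, 1.14 and 1.34 FPKM in control. The groups overlapped (log2 fold change -0.19 ± 0.22 SE, limma adjusted p = 0.50), and after centring it fell by 0.69 (adjusted p = 0.027). Klrb1c, which encodes the NK1.1 antigen of C57BL/6 NK and NKT cells, held 44, 43 and 22 reads in cisplatin and 10, 26 and 10 in control. These ranges overlapped, and voom called it higher by 1.27 (adjusted p = 0.037). Klrb1b held 27 to 58 reads in cisplatin and 15 to 31 in control and did not pass in voom (adjusted p = 0.17). Both Klrb1b and Klrb1c overlap the gene Gm44511 on the same strand, and share 22.3% and 10.5% of their 100-base stretches with it.

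In all, 11 members fell under the level tested in FPKM. None exceeded 72 reads in a library, and 9 of them reached 10 reads in at least 1 library. Beside Klrb1b, Klrb1c, Klri1 and Klri2, these were Klra5, Klra10, Klra17, Klrb1 and Klrb1a. Klra17 (Ly49Q), known from plasmacytoid dendritic cells, held 0, 4 and 12 reads in cisplatin and 0, 1 and 1 in control. The pseudogene Klrb1-ps1 held 6 and 1 reads in 2 control libraries and none elsewhere, and Klra11-ps held no read in any library. At these depths differences were not detectable for most of these genes.

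Ligands of the receptors did not move in 1 direction. Of 22 listed ligand and ligand-subunit genes, 18 were matched by symbol and 13 tested. At the deposited scaling 5 rose (27.5% of all tested genes) and 3 fell (29.0%). After centring none rose (5.92% of all tested genes) and 7 fell (61.3%). Among NKG2D ligands, H60b (6.90 ± 0.64 against 3.60 ± 1.21 FPKM) and Ulbp1 (8.15 ± 0.24 against 5.39 ± 0.47 FPKM) rose by 0.96 and 0.59 on the log2 scale, and these did not pass after centring (0.46 and 0.089). Raet1e fell by 1.72, from 3.66 ± 0.33 to 1.10 ± 0.48 FPKM (SD, n = 3; limma adjusted p = 0.0021), and was also lower after centring. It moved in the direction of the ID8 markers given below, and the part of ID8 RNA in its fall was not tested. Raet1d had a log2 fold change of 1.13 and did not pass (limma adjusted p = 0.068), while in voom it rose by 1.43 (adjusted p = 0.02).

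H2-T23, which encodes the Qa-1 ligand of CD94/NKG2, rose by 0.14 (227 ± 3.96 against 206 ± 4.72 FPKM) and was lower by 0.36 after centring. The classical class I genes H2-D1 and H2-K1 and their light chain B2m had log2 fold changes of 0.054, 0.049 and -0.087 at the deposited scaling, where none passed. After centring all 3 fell, by 0.45, 0.45 and 0.59, whereas in voom H2-D1 and H2-K1 rose by 0.14 and 0.13. The median log2 fold change of all tested genes was -0.47 after centring and 0.0998 in voom. The NKR-P1 ligands Clec2d and Clec2i rose by 0.60 and 0.51, and were at 0.097 and 0.013 after centring. The cadherin ligands of Klrg1, Cdh1 and Cdh2, fell by 1.48 and 1.57 and were lower after centring too. These cadherins moved with the ID8 markers given below, and Cdh1 was listed among them; the part of ID8 RNA in their fall was not tested.

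Adaptors and signalling genes of the receptors were mostly higher at the deposited scaling. There 18 of 20 rose (27.5% of all tested genes), 1 fell (29.0%) and Vav3 did not pass. After centring 8 rose (5.92% of all tested genes) and 5 fell (61.3%). Tyrobp (DAP12), the adaptor of Klra4, Klra8 and Klrk1, measured 17.9 ± 2.64 FPKM in cisplatin and 9.03 ± 0.50 FPKM in control (SD, n = 3 each), and rose by 0.97 on the log2 scale (limma adjusted p = 0.00034). Fcer1g, a related adaptor of Klrb1c, rose by 0.88, and Ptpn6 (SHP-1), the phosphatase bound by ITIMs, by 1.04. These 3 also rose after centring, by 0.47, 0.38 and 0.54. Hcst (DAP10), the adaptor of NKG2D, rose by 0.35 and was at -0.15 (adjusted p = 0.12) after centring. Sh2d1b1 and Vav1 rose by 1.27 and 0.90, and after centring by 0.77 and 0.40. Ptpn11 (SHP-2) fell by 0.23. Tyrobp, Fcer1g and Ptpn6 are also expressed in myeloid cells.

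Of 14 transcription factors of NK and cytotoxic T cells, 10 rose (27.5% of all tested genes) and 2 fell (29.0%) at the deposited scaling. After centring 4 rose (5.92% of all tested genes) and 5 fell (61.3%). Eomes, the T-box factor of NK and memory CD8 T cells, rose by 1.05 (2.86 ± 0.06 against 1.33 ± 0.16 FPKM; 0.55 after centring, adjusted p = 0.0043). Zbtb16 (PLZF), which marks innate-like T cells, rose by 1.47 from a low level (0.833 ± 0.08 against 0.273 ± 0.18 FPKM), and did not pass after centring (adjusted p = 0.11), with a pseudocount of 0.01, without a filter on low values, or without cisplatin library 1 (adjusted p = 0.082). Nfil3, a factor needed for NK-cell development, fell by 1.45, from 31.8 ± 1.56 to 11.6 ± 1.01 FPKM. Zeb2, a factor of terminal effector cells, fell by 0.53, and both were lower after centring. Ikzf2 rose by 0.89 at the deposited scaling and by 0.39 after centring.

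**Figure D3:**
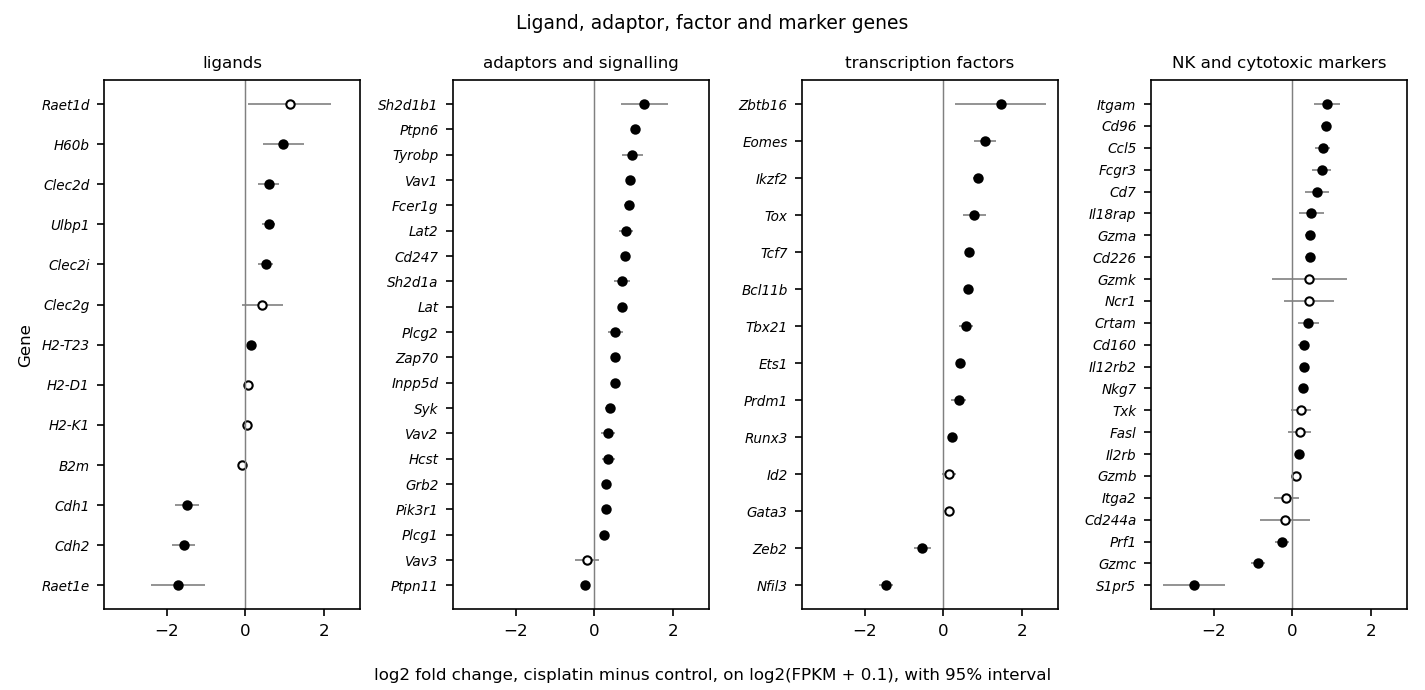
Log2 fold change (cisplatin minus control, on log2(FPKM + 0.1), FPKM as deposited) with 95% intervals for tested genes of the lists of ligands, adaptors and signalling, transcription factors, and NK and cytotoxic markers, with filled points where the adjusted p-value was under 0.05. Raet1e, Cdh1, Cdh2, Nfil3, Gzmc and S1pr5 lie on the low side and most adaptors lie above 0. After centring on T-cell genes 8 adaptors rose (5.92% of all tested genes) and 5 fell (61.3%).

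The NK and cytotoxic marker genes were mixed. Of 24, 23 were tested, and 13 rose (27.5% of all tested genes) and 3 fell (29.0%) at the deposited scaling. After centring 3 rose (5.92% of all tested genes) and 9 fell (61.3%). Ncr1 (NKp46), which defines NK cells, was at 1.15 ± 0.35 FPKM in cisplatin and 0.817 ± 0.16 in control and did not pass (limma adjusted p = 0.22). Gzmb was abundant in both groups (152 ± 6.14 and 142 ± 6.08 FPKM) and did not pass at the deposited scaling. Gzmb rose by 0.18 in voom and fell by 0.41 after centring, where the all-gene medians were 0.0998 and -0.47. Among tested genes of this list Itgam, Cd96 and Ccl5 rose the most, by 0.89, 0.86 and 0.77. The same 3 were those that rose after centring, by 0.39, 0.36 and 0.27. S1pr5, Gzmc and Prf1 fell by 2.498, 0.86 and 0.25 at the deposited scaling. S1pr5 held 13, 21 and 7 reads in cisplatin and 98, 104 and 106 in control. Its cisplatin values of 0.161, 0.254 and 0.086 FPKM lay near the added 0.1, and only its control libraries were above 0.5 FPKM. Prf1 lost its call in voom (-0.17, adjusted p = 0.10), under quantile normalization, after rescaling to reads on genes, and in 5 of the 6 fits without a library, keeping it only without cisplatin library 1. The summed FPKM of this list was 579 to 598 in cisplatin and 467 to 495 in control.

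The tested libraries held marker transcripts of several cell types beside T cells, and the summed levels of these markers differed between the groups. Whether cell numbers or expression within cells changed was not tested. Summed FPKM of the T-cell list was 3191 to 3263 in cisplatin and 2025 to 2154 in control, with no marker at 0. The gamma-delta list rose in 4 of 4 tested genes, from 13.6 to 17.9 in control to 40.1 to 45.8 in cisplatin, and all 4 also rose after centring. The B-cell list (10 of 12 rose, 1 fell) summed to 3641 to 3713 in cisplatin and 1703 to 1791 in control, and to 439 to 474 and 308 to 323 without Ighm, the immunoglobulin heavy chain gene that made up most of it. After centring, 5 B-cell genes rose and 3 fell. The myeloid list (9 of 11 tested rose, 1 fell; after centring 7 and 2) summed to 131 to 149 in cisplatin and 66.5 to 71.9 in control. The ID8 list fell in 17 of 18 tested genes, also after centring, and its sum was 268 to 277 in cisplatin and 1797 to 1879 in control, with Col3a1 at 0 in every library. The part of these shifts in the Klr differences was not tested. Over all tested genes, 27.5% rose and 29.0% fell as deposited, and 5.92% rose and 61.3% fell after centring.

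**Figure D4:**
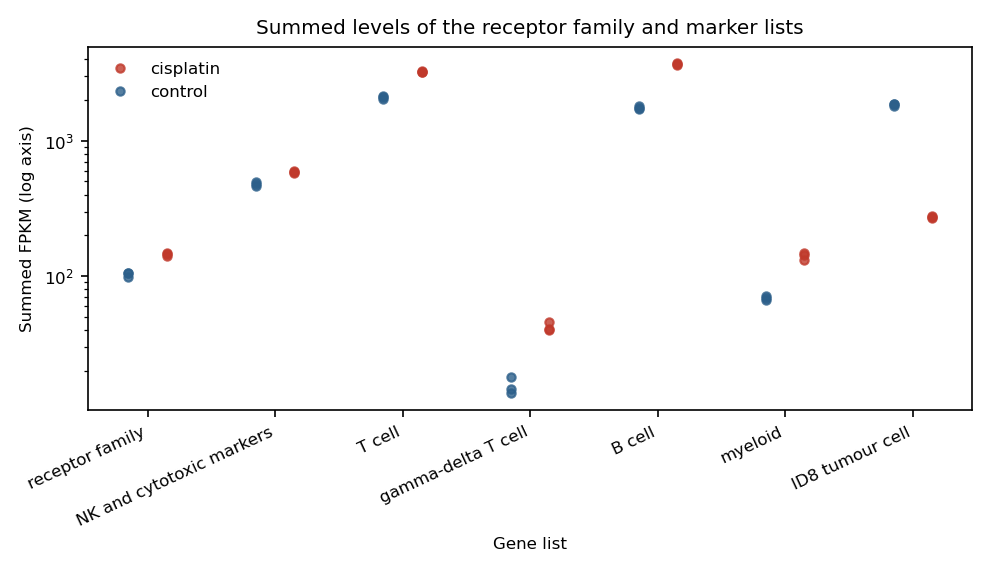
Summed FPKM (log axis) per library of the 30 Klr genes and of the marker lists, with a point per library (n = 3 per group). The cisplatin libraries lie above control for the Klr genes and for every marker list except the ID8 list, which lies below, all at the deposited scaling.

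Genes lying among the Klr genes of the chromosome 6 cluster gave a local comparison. Of 93 such genes, 15 were tested at the deposited scaling, and 6 rose (27.5% of all tested genes) and 2 fell (29.0%). Their median log2 fold change was 0.35, against 0.028 over all tested genes. No counts after centring were made for them. Clec7a (dectin-1), a receptor of myeloid cells, rose by 2.501, and Cd69, an early activation marker, rose by 0.35. Olr1, a lectin-like scavenger receptor, and Gabarapl1, an autophagy gene, fell by 2.003 and 1.57. The 17 tested Klr genes of the cluster lay beside genes that moved in both directions.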

How the data were processed

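The authors deposited 1 table of FPKM per gene, and the genes' lengths, coordinates and biotypes beside it. The submitters' processing notes name fastp, HISAT2 2.0.5, featureCounts 1.5.0-p3 and the mm10 build, whereas the study's methods name LifeScope for alignment and counting, and DESeq2 for differential expression, so the route to these values is uncertain. Strand and the treatment of multiply matching reads are not given in the sources used here. All 30 members had the same coordinates in GENCODE M21 (GRCm38). Whole reads were rebuilt from FPKM and gene length (100% of values within 0.1 of a whole read), giving 30606569 to 32169496 reads on genes per library. The library factor behind FPKM was 1.03 to 1.05 times the reads on genes in cisplatin and 0.976 to 0.982 times in control.

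The main test was limma 3.58.1 (R 4.3.3; lmFit, eBayes with trend) on log2(FPKM + 0.1), two-sided, for genes whose average reached 0.5 FPKM across the 6 libraries, with Benjamini-Hochberg adjustment over all 15874. A fold change on this scale understates the change of low genes. The script was tested on simulated data. Centring subtracted each library's mean over 21 T-cell genes that no other list holds. Alternatives were pseudocounts of 1 and 0.01, no filter or a mean of at least 1 FPKM, quantile, median-of-ratios and read-based scaling, no trend, voom on rebuilt reads (for genes with 10 or more reads in 3 or more libraries), protein-coding genes alone, the replicate number as a block, and leaving out each library. The members and gene lists were chosen with earlier results of these data known. Each Klr member could be named. From the other lists the named genes were direct ligands, adaptors or defining markers, and some others. These others were chosen with their values known and were not always those with the largest fold changes. Genes among the Klr cluster were named after their values were seen. The ITIM was searched in the longest complete coding model of each gene, before the first 19-residue window with a mean hydropathy of at least 1.6. Tables and figures were made with python 3.11.15, pandas 2.3.3, scipy 1.17.1 and matplotlib 3.10.9.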

Additional observations from a re-analysis of the deposited data

How the results depend on the processing

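Centring on T-cell genes moved most counts: Klr members called higher went from 10 to 1 and lower from 0 to 3, ligands from 5 higher and 3 lower to 0 and 7, adaptors from 18 and 1 to 8 and 5, transcription factors from 10 and 2 to 4 and 5, and NK markers from 13 and 3 to 3 and 9. It reversed the sign of Klrd1 (-0.041), Klra7 (-0.085), Klra4 (-0.42), Klra2 (-0.27), Klre1 (-0.13), Klrc3 (-0.31) and Klrc2 (-0.11). The median log2 fold change of all genes moved from 0.028 to -0.47 there, to 0.16 under quantile normalization and to 0.11 when FPKM were rescaled to reads on genes. The share of called genes that were lower was 51.4% as deposited, 91.2% after centring, 39.5% under quantile normalization and 43.4% after rescaling. Of all tested genes, 27.5% were called higher and 29.0% lower as deposited, against 5.92% and 61.3% after centring. Members called at 2-fold or more went from 0 to 2 with a pseudocount of 0.01, 5 under quantile normalization, 1 after rescaling and 4 with voom, and ranged from 0 to 2 when single libraries were left out. Ligands called higher went to 8 with voom, and ligands called lower to 6 under quantile normalization.

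Klra14-ps turned to 0.075 under quantile normalization. With single libraries left out, Klra4 ranged from -0.0091 (without cisplatin library 2) to 0.13, Klrb1f from -0.31 to 0.017 (without cisplatin library 3) and Klra14-ps from -0.73 to 0.11 (without cisplatin library 2). Without a filter on low values Klrg1 and Klra9 lost their calls (adjusted p = 0.055 and 0.082). Klrd1, Klrk1, Klrc1, Klra1, Klra3, Klra7 and Klra13-ps kept their calls in each of the 6 fits without a library. The causes were not tested. Low read numbers limit Klrc3, Klra14-ps and the 11 untested members.

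Libraries with the same replicate number did not deviate together (correlations of deviations over genes 0.023, -0.063 and -0.021), and nothing says that a number marks a shared mouse. With the replicate number as a block, 4147 genes were called higher and 4417 lower, against 4360 and 4603 without it, and all 19 tested members kept their call status.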
